A study of Homo sapiens with 6 samples.

Results

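Collagen chain genes encode the polypeptides that assemble in threes into the triple helices of the extracellular matrix. They were taken as every probe whose gene name on the array had the form COL, a number, the letter A and a number. The rule gave 65 probes of 40 genes on 92 spots, out of 41000 probes, 30484 gene names and 43376 spots that were not controls. For COL1A1, COL1A2 and COL13A1, 1 probe each was printed 10 times on every array, and all other collagen probes once. A probe was tested when its spot had been found by the image software on at least 5 of the 6 arrays, which left 57 probes of 37 genes. The genes without a tested probe were COL4A4, COL9A2 and COL10A1.

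RH36 is an embryonal rhabdomyosarcoma (ERMS) cell line that lacks the PAX3/FOXO1 fusion gene, and rhabdomyosarcoma is a soft tissue tumour with features of developing skeletal muscle. The pre-miR-27a group (n = 3) was RH36 transiently transfected with a precursor molecule that raises miR-27a, and the pre-control group (n = 3) was RH36 given a negative control precursor with the same reagent. The labels call the arrays of each group biological replicates, and each RNA was labelled with Cy3 and hybridized to its own whole-genome array. The labels give 10 nM of pre-miR-27a and 48 h for its arrays, with overexpression tested at 24 h, and the methods of the study differ in concentration, reagent and time, so the dose and time of these arrays are not settled. All samples are of 1 cell line grown under the same conditions, which limits the comparison to that line.

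Fibrillar collagens, such as types I, II, III and V, form the banded fibrils of skin, bone, tendon and cartilage. Type IV collagen forms the sheet-like network of basement membranes, type VI forms beaded filaments around cells including muscle fibres, and the fibril-associated collagens with interrupted triple helices (FACIT) sit on the surface of fibrils. Transmembrane collagens and the multiplexins of types XV and XVIII complete the family, and in muscle the basement membrane and the type VI filaments link the fibre to the connective tissue around it.

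The sequences given here are the mature miRNA raised by the transfection and promoter regions of type IV pairs. Whether these regions bear on the detection of type IV genes, described further on, was not tested. The RefSeq entry (GRCh38.p14) for the mature strand, hsa-miR-27a-3p, lies at chr19:13836447-13836467 on the minus strand. Capitals mark the seed, bases 2 to 8, which is the stretch that pairs with target transcripts.
hsa-miR-27a-3p: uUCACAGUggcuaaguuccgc
Type IV genes lie head to head in pairs, with transcription running outward from a common region. In RefSeq the start sites of COL4A1 and COL4A2 on chromosome 13 are separated by 126 bases, those of COL4A4 and COL4A3 on chromosome 2 by 418 bases and those of COL4A6 and COL4A5 on chromosome X by 379 bases. The whole interval between COL4A1 and COL4A2 (GRCh38.p14, chr13:110307158-110307283, plus strand) and the 250 bases upstream of COL4A5 (chrX:108439588-108439837, plus strand) are given below, because in each pair 1 stretch of DNA serves both genes. Capitals mark CCAAT or GGGCGG, read on either strand, so that CCAAT on the other strand appears as ATTGG.
COL4A1-COL4A2: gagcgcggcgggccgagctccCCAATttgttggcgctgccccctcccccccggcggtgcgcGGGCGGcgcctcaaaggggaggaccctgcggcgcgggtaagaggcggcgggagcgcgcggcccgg
COL4A5: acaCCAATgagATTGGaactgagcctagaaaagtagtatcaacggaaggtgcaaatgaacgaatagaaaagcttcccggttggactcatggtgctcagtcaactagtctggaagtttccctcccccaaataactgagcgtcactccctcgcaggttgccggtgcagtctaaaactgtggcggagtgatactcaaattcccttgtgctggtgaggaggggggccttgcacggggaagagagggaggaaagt
The first interval held CCAAT once and GGGCGG once and was 80.2% G or C, and the second held CCAAT at 2 places, once on each strand, held no GGGCGG and was 51.2% G or C. RefSeq gave a promoter window to 29 of the 40 collagen genes, 41 windows in all. CCAAT on either strand was in 11 of the 41 collagen windows (26.8%) and in 32.0% of all 35116 windows of the same length, GGGCGG in 23 (56.1%) against 42.6%, and TATAAA in 7 (17.1%) against 10.7%. A match of letters is a description of the window only.

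The arrays of the groups differed in detection. Spots well above background made up 69.9% to 73.9% of each pre-control array and 74.1% to 78.0% of each pre-miR-27a array, and spots not found numbered from 1559 to 1750 and from 3487 to 4153. No collagen spot was saturated. Each group occupied a slide of its own, slide 1 for pre-control and slide 2 for pre-miR-27a, and an effect of the slide and an effect of the precursor cannot be told apart in any collagen comparison. In whole-culture RNA, fewer cells of a type and less RNA per cell cannot be told apart either.

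Most of the collagen family was detected in RH36. For 32 of the 40 genes at least 1 probe was well above background on all 6 arrays, for 7 genes no probe was on any array, and COL23A1, a transmembrane collagen, was between these. Among fibrillar collagens 10 of 11 genes were detected on all arrays, the exception being COL11A1, a chain of cartilage fibrils. All 3 type VI genes, 9 of 10 FACIT genes, both multiplexin genes and COL7A1, the anchoring fibril collagen of skin, were detected on all arrays. The short chain network collagens were detected less, with COL10A1 well above background on 6 arrays and COL8A1 and COL8A2 on none. Spots marked as not found did not lower these counts. The spot was not found on 2 arrays for COL10A1 and COL9A2, and on 1 array for COL7A1 and COL9A1. COL22A1 and COL17A1, a collagen of epithelial hemidesmosomes, were not well above background on any array.

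Detection of type IV collagen followed the gene pairs. COL4A1 and COL4A2, the chains of most basement membranes, and COL4A5 and COL4A6 were well above background on all 6 arrays. COL4A3 and COL4A4, the chains of the kidney glomerular basement membrane, were not well above background on any array by any of their probes. The brighter COL4A3 probe gave a log2 signal of 3.08, 4.57 and 2.22 in pre-control and 3.42, 3.62 and 2.30 in pre-miR-27a arrays, and these dim values carry no order.

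**Figure D1:**
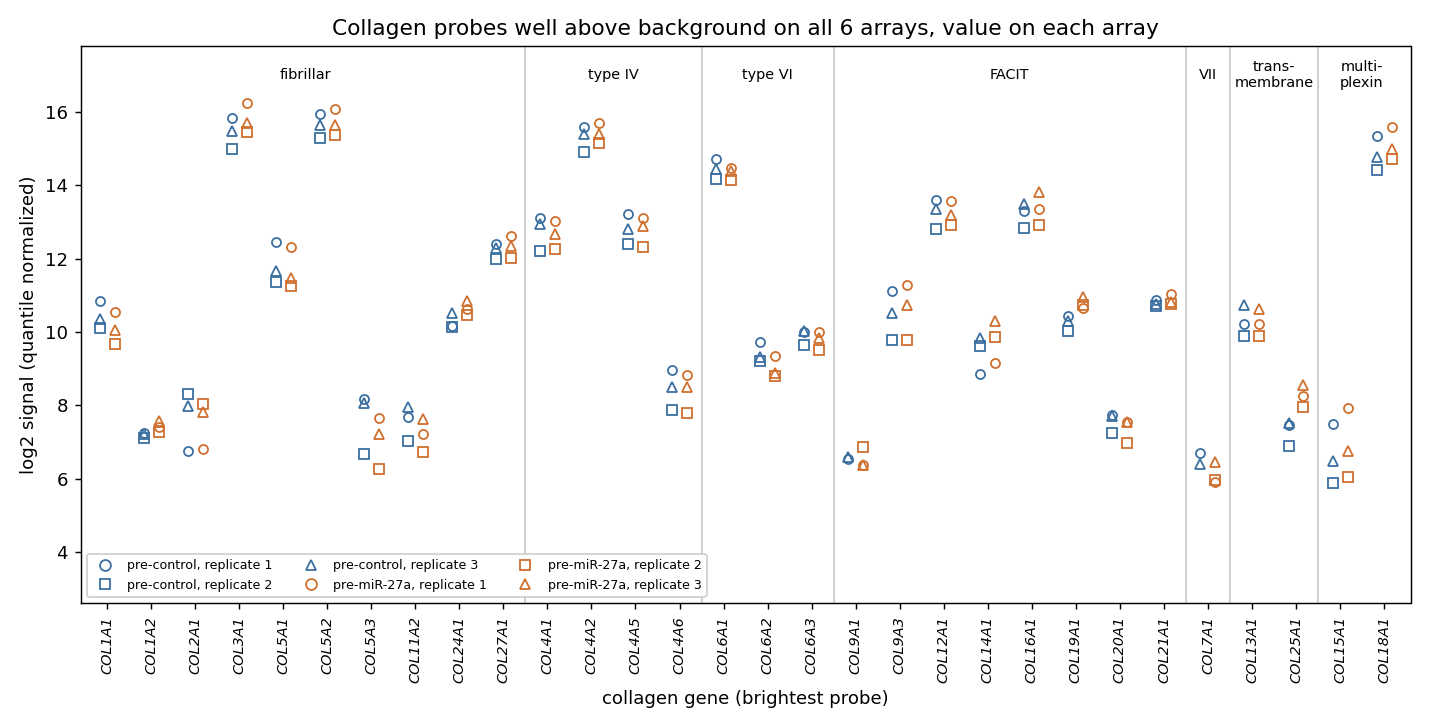
Normalized log2 signal (y axis) of the brightest probe of each collagen gene (x axis, grouped by class) on each array, for genes whose probe was well above background on all 6 arrays. Blue symbols are pre-control and orange symbols pre-miR-27a arrays, with the shape giving the replicate number. Signals of different probes cannot be set against each other, and for most genes the spread within a colour is wider than the shift between colours.

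The first question was whether raising miR-27a altered collagen transcripts in RH36. By its brightest probe, no collagen gene differed between the groups at an adjusted p under 0.05 with limma, with 0 of 37 genes higher and 0 lower. Over all gene names on the array the same rule called 7.4% (3.07% higher and 4.33% lower). At an unadjusted p under 0.05 there were 2 collagen genes, both higher (COL19A1 and COL25A1), against a background of 23.8% of all gene names. The log2 difference, pre-miR-27a minus pre-control, had a median of −0.03 over the 37 collagen genes and −0.04 over all gene names, and ran from −0.57 (COL5A3) to 0.98 (COL25A1), with 17 genes above 0 and 20 below. With 3 arrays against 3, an exact two-sided permutation test cannot give a p below 0.1, and the median standard error of a collagen gene was 0.28 log2 units against 0.14 over all probes. Leaving out any single array gave 0 collagen genes called, but the count over the whole array then also fell, to 1276 probes without pre-control replicate 1, 81 without pre-control replicate 3 and 0 without any other.

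The comparison above left the replicate numbers out. The labels do not state a pairing, and the numbers were taken as pairing the arrays from correlations in these same data. Fitting them as a block gave calls. The block lowered the standard error from 0.29 to 0.06 for COL1A1 and from 0.30 to 0.09 for COL4A1. For COL19A1 it fell only from 0.14 to 0.13. With the block, 4 of the 37 collagen genes passed, COL24A1 and COL25A1 higher and COL1A1 and COL6A2 lower, against a background of 14.1% of all gene names (5.97% higher and 8.11% lower). None of the 4 kept the call in the blocked comparison when any 1 array was left out, with adjusted p from 0.108 to 0.164, and limma then called 0 probes of the whole array. Their differences moved little, to 0.94 to 1.06 for COL25A1, 0.34 to 0.40 for COL24A1, −0.38 to −0.31 for COL1A1 and −0.44 to −0.40 for COL6A2. The direction was the same in all 3 same-numbered pairs for 21 of the 37 genes, 14 of them higher and 7 lower, against 54.1% of all gene names.

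**Figure D2:**
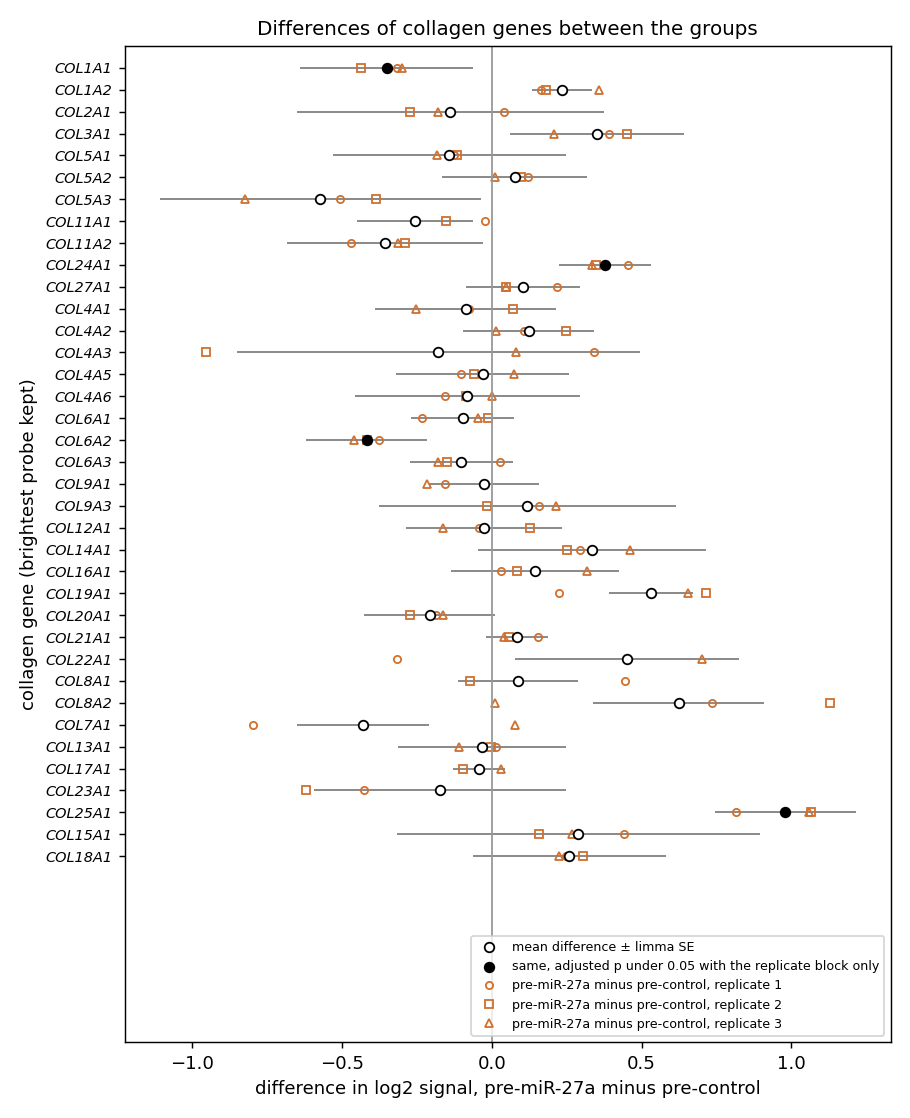
Log2 difference, pre-miR-27a minus pre-control (x axis), of the brightest tested probe of 37 collagen genes (y axis). Circles with lines are the mean difference ± limma standard error, filled where the adjusted p was under 0.05 with the replicate block only, and small orange symbols are the differences of same-numbered arrays. COL25A1 lies farthest to the right at 0.98 and COL5A3 farthest to the left at −0.57.

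COL25A1, a transmembrane collagen of neurons and developing muscle, had the largest difference. Its brightest probe (hg18 chr4:110000278-110000337) gave 7.45, 6.88 and 7.51 in pre-control arrays and 8.26, 7.95 and 8.56 in pre-miR-27a arrays. All pre-miR-27a values lay above all pre-control values. The log2 difference was 0.98 (SE 0.23, adjusted p = 0.0648 with limma, 0.0334 with the replicate block), and over the alternatives of processing on all 6 arrays the adjusted p ran from 0.0334 to 0.316. Its size fell to 0.60 with normexp background correction, where it passed, and to 0.39 as the mean of its 3 probes, where it did not. The other 2 probes of COL25A1, at hg18 chr4:109964525-109964584 and chr4:109952700-109952759, gave differences of −0.19 (SE 0.15) and 0.39 (SE 0.34), and neither passed.

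COL19A1, a FACIT-related collagen of muscle basement membrane zones, gave 10.43, 10.03 and 10.29 in pre-control and 10.65, 10.74 and 10.94 in pre-miR-27a arrays (hg18 chr6:70978129-70978188). Again the groups did not overlap, and the difference was 0.53 (SE 0.14, adjusted p = 0.08, 0.0753 with the block). Among the alternatives run on it, only normexp background correction let it pass (adjusted p = 0.0337), in a range of 0.0337 to 0.0853 over all 6 arrays and of 0.0885 to 0.2 with 1 array left out. COL24A1, a minor fibrillar collagen, gave 10.17, 10.12 and 10.52 against 10.63, 10.47 and 10.85, so that the groups overlapped. Each pre-miR-27a array was 0.33 to 0.45 above the pre-control array of its number, and the difference of 0.38 (SE 0.15) had an adjusted p of 0.203, or 0.0413 with the block.

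Groups that did not overlap were found for 4 of the 37 collagen genes, COL1A2, COL11A1, COL19A1 and COL25A1, against 31.5% of all gene names. COL11A1 was not above background on any array, and its values near 2 have no order.

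The type I chains, which form the most abundant fibrils of connective tissue as heterotrimers, gave differences of opposite sign. COL1A1 (hg18 chr17:45616564-45616625) had log2 signals of 10.85, 10.11 and 10.36 in pre-control and 10.54, 9.67 and 10.06 in pre-miR-27a arrays. Every pre-miR-27a array was below the pre-control array of its number, by 0.32, 0.44 and 0.30, while the groups overlapped widely. The difference was −0.35 (SE 0.29, adjusted p = 0.515), and with the block the adjusted p was 0.0466. Without the block it was −0.14 when either pre-control replicate 1 or pre-miR-27a replicate 2 was left out, and −0.58 without pre-miR-27a replicate 1. COL1A2 gave 7.23, 7.10 and 7.21 against 7.39, 7.28 and 7.56, a difference of 0.23 (SE 0.10, adjusted p = 0.228, 0.105 with the block). Whether the type I chains differed from each other in response was not tested.

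The chains of types III and V, which join type I collagen in mixed fibrils, did not pass by their brightest probes. COL3A1, the chain of type III collagen, gave 15.84, 14.99 and 15.49 in pre-control and 16.23, 15.45 and 15.70 in pre-miR-27a arrays, a difference of 0.35 (SE 0.29, adjusted p = 0.52) that ran from 0.13 without pre-control replicate 2 to 0.55 without pre-control replicate 1. Its other probes gave 0.19 and 0.76, and the latter passed with the block (adjusted p = 0.0402). COL5A1 and COL5A2, the chains of type V collagen that regulates fibril diameter, gave differences of −0.14 (SE 0.39, adjusted p = 0.867) and 0.08 (SE 0.24, adjusted p = 0.887), the second turning to −0.09 under scaling by the 75th percentile. COL5A1 had 12.44, 11.37 and 11.65 against 12.32, 11.25 and 11.47, and COL5A2 had 15.95, 15.29 and 15.64 against 16.07, 15.38 and 15.65. In both genes replicate 1 was the highest and replicate 2 the lowest array of each group.

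The remaining fibrillar genes gave values from −0.57 to 0.10. COL5A3 had the lowest of them, with 8.17, 6.66 and 8.05 in pre-control and 7.66, 6.27 and 7.23 in pre-miR-27a arrays, and its replicates spread over 1.51 and 1.39 log2 units. The difference of −0.57 (SE 0.54) had an adjusted p of 0.572, or 0.0548 with the block. Type II collagen of cartilage (COL2A1) and COL11A2 gave −0.14 and −0.36.

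Type IV collagen gave no call with or without the block. COL4A1 gave 13.10, 12.20 and 12.93 in pre-control and 13.02, 12.27 and 12.68 in pre-miR-27a arrays, a difference of −0.09 (SE 0.30, adjusted p = 0.897) that became 0.06 when its 2 probes were averaged. COL4A2 gave 15.58, 14.91 and 15.39 against 15.68, 15.16 and 15.40, a difference of 0.12 (SE 0.22, adjusted p = 0.78) that became −0.02 under scaling by the 75th percentile. The differences of COL4A5 and COL4A6 were −0.03 (SE 0.29) and −0.08 (SE 0.38). In all 4 genes the replicates of a group lay over 0.5 log2 units apart, from 0.66 to 1.1 in pre-control and from 0.52 to 1.03 in pre-miR-27a arrays.

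The 3 chains of type VI collagen were all measured well above background. COL6A2 (hg18 chr21:46376671-46376730) gave 9.72, 9.22 and 9.33 in pre-control and 9.34, 8.80 and 8.87 in pre-miR-27a arrays. Same-numbered arrays differed by −0.38, −0.42 and −0.46, and a second probe at hg18 chr21:46373719-46373778 gave the same mean difference of −0.42. The adjusted p was 0.273 and 0.311 for the brighter and the dimmer probe, and 0.0361 and 0.0395 with the block. COL6A1 gave 14.72, 14.16 and 14.44 against 14.48, 14.15 and 14.39, and COL6A3 gave 9.98, 9.65 and 10.01 against 10.01, 9.50 and 9.84. Their differences were −0.10 (SE 0.17, adjusted p = 0.778) and −0.10 (SE 0.17, adjusted p = 0.772). A second, dim probe of COL6A1 was well above background on 0 of 3 pre-control and on 3 of 3 pre-miR-27a arrays, at least 1.41-fold higher in the latter by that bound. It was not tested because it had 2 missing spots. The lowest log2 signal well above background was itself lower on pre-miR-27a arrays, 3.61 to 4.27 against 4.37 to 5.01 on pre-control arrays.

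Among FACIT and related collagens 6 genes had a difference above 0 and 3 below, with a median of 0.12 and a range of −0.21 to 0.53. The multiplexins, whose C-terminal fragments include endostatin of COL18A1, gave 0.29 (COL15A1, SE 0.61) and 0.26 (COL18A1, SE 0.32, adjusted p = 0.68). COL18A1 had 15.35, 14.42 and 14.77 in pre-control and 15.60, 14.72 and 14.99 in pre-miR-27a arrays, and its difference ran from 0.011 without pre-miR-27a replicate 1 to 0.51 without pre-control replicate 1. COL13A1, a transmembrane collagen of the neuromuscular junction, gave −0.03 (SE 0.28). Of the other tested transmembrane genes, COL17A1 was not above background and COL23A1 was dim, with differences of −0.04 and −0.17.

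Probes of 1 gene did not always give 1 answer. Of 16 collagen genes with several tested probes, 7 had probes with differences of opposite sign, and the spread between the probes of a gene had a median of 0.37 and reached 1.90 log2 units. The only calls without the block came from probes that were not the brightest of their gene. They were 2 of the 57 collagen probes, both lower, against a background of 7.83% of all 36469 probes (3.88% lower). Over all probes the calls divided into 1440 higher and 1416 lower (50.4% higher), and into 1275 and 1981 (39.2% higher) under scaling by the 75th percentile.

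The first was a probe of COL27A1, a fibrillar collagen of cartilage (hg18 chr9:116112716-116112775). It gave 9.75, 9.71 and 9.65 in pre-control and 9.19, 9.07 and 9.10 in pre-miR-27a arrays, a fall of 0.58 on the log2 scale that exceeded the spread within both groups. Its mean difference was −0.58 (SE 0.08, adjusted p = 0.0205 with limma, 0.0334 with the block). The brighter COL27A1 probe, at hg18 chr9:116113559-116113618, gave 12.40, 11.98 and 12.30 against 12.62, 12.03 and 12.35, a difference of 0.10 (SE 0.19, adjusted p = 0.79). The second called probe was of COL20A1 (hg18 chr20:61435796-61435855), with 7.00, 7.07 and 6.90 against 6.47, 6.46 and 6.26. Its difference was −0.59 (SE 0.10, adjusted p = 0.0274, 0.0334 with the block), and the brighter COL20A1 probe gave −0.21 (SE 0.22, adjusted p = 0.62). Both calls were lost whichever array was left out, with adjusted p from 0.0523 to 0.0777 for COL27A1 and from 0.0617 to 0.089 for COL20A1, while limma called 0 probes of the whole array in 4 of those 6 settings. The differences themselves stayed between −0.62 and −0.56 for COL27A1 and between −0.64 and −0.53 for COL20A1.

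With the replicate block 10 collagen probes of 9 genes passed, against a background of 14.9% of all probes. Besides the genes named above, these included COL5A2 higher by its dimmest probe (0.44, adjusted p = 0.0426) and COL18A1 lower by its dimmer probe (−0.34, adjusted p = 0.0466). The COL18A1 probes lay at hg18 chr21:45757986-45758045 (brighter) and chr21:45753938-45754459 (dimmer). The brighter minus the dimmer signal was 4.24, 4.13 and 4.04 in pre-control and 4.77, 4.75 and 4.67 in pre-miR-27a arrays, a shift of 0.60 between the probes. COL14A1, a FACIT collagen, gave a shift of 0.52, from 0.95, 0.95 and 0.89 to 1.32, 1.44 and 1.59. These shifts were picked out after the values were seen, and which transcripts each probe reads was not analysed here. Dim probes of COL1A2 and COL6A3 were well above background on 1 array each, pre-control replicate 3 at 6.98 and pre-control replicate 1 at 7.38, with every other measured value between 1.97 and 2.16.

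**Figure D3:**
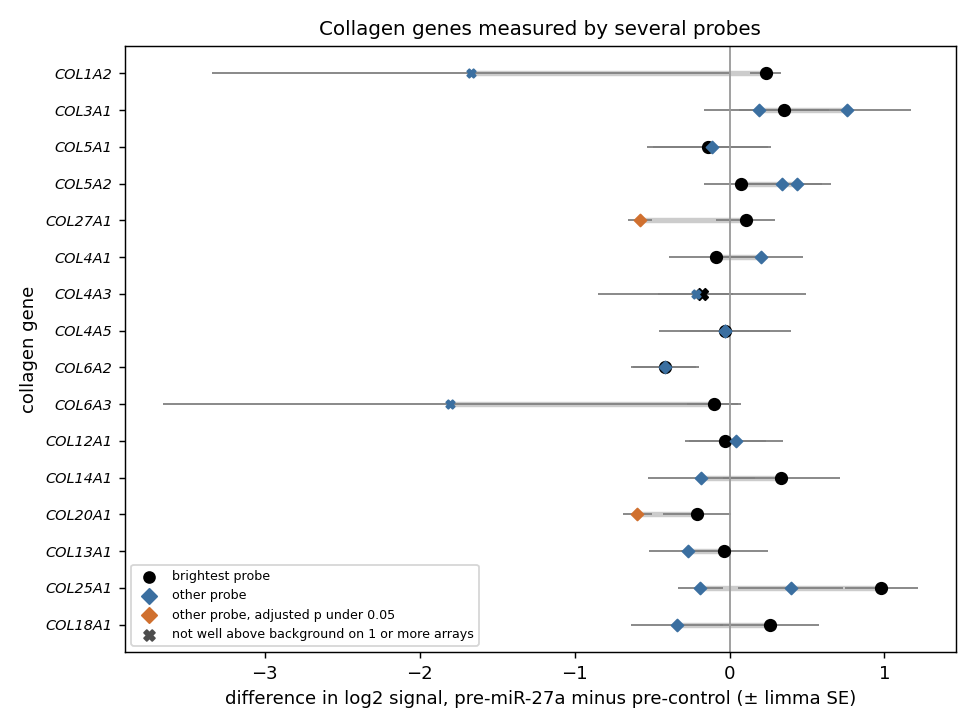
Log2 difference, pre-miR-27a minus pre-control, ± limma standard error (x axis) for every tested probe of the 16 collagen genes with several (y axis). Black circles are the brightest probe, diamonds the others, orange the 2 with an adjusted p under 0.05 and crosses probes not well above background on 1 or more arrays. Grey bars join the probes of a gene and cross 0 for 7 genes.

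Replicates of collagen genes spread more widely than those of all gene names. For the 28 genes whose brightest probe was measured well above background on all 6 arrays with no missing spot, the highest minus the lowest array of a group had a median of 0.78 log2 units in pre-control and 0.75 in pre-miR-27a. Over all 18949 gene names with such probes it was 0.29 and 0.25. The size of the group difference, in contrast, had a median of 0.14 for collagen genes and 0.19 for all. A spread over single arrays and a difference of group means are unlike measures, and the median spread was the larger for all gene names too. The group difference was smaller than the spread in both groups for 24 of the 28 collagen genes, that is 85.7% against 54.2% of all gene names. This pattern was looked for after the values had been seen and carries no test.

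The replicate variation of collagen genes ran the same way in both groups. Replicate 2 was the lowest array of both groups for 25 of 28 collagen genes, that is 89.3% against 22.6% of all gene names. Replicate 1 was the highest and replicate 2 the lowest in both groups for 17 of 28, that is 60.7% against 9.01%. The deviations from the group mean, correlated over the 28 genes between same-numbered arrays, gave r of 0.96, 0.94 and 0.85, and between different numbers from −0.86 to 0.23. Over 31717 probes the same-numbered values were 0.40, 0.46 and 0.41. Deviations cancel out within a group, so the values between different numbers follow in part from the same-numbered ones. Genes on the same array share its RNA and hybridization, so these values describe 6 arrays and not 28 independent observations.

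The pattern crossed the classes of collagen. Replicate 2 was lowest in both groups in 9 of 10 fibrillar genes, 4 of 4 type IV genes, 3 of 3 type VI genes, 5 of 7 FACIT genes, 2 of 2 transmembrane genes and 2 of 2 multiplexins. The widest spread was that of COL15A1, a collagen of muscle and vessel basement membranes, with 7.48, 5.88 and 6.49 in pre-control and 7.92, 6.04 and 6.76 in pre-miR-27a arrays. COL9A3, a cartilage FACIT chain, followed the same order with 11.13, 9.79 and 10.51 against 11.28, 9.77 and 10.73. COL1A2 and the FACIT gene COL21A1 were nearly flat, with spreads of 0.13 and 0.16 in pre-control arrays.

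Of 28 genes, 3 departed from it. COL2A1, the cartilage collagen, ran the other way with 6.76, 8.31 and 7.98 in pre-control and 6.80, 8.03 and 7.80 in pre-miR-27a arrays, so that replicate 1 was lowest in both. COL14A1 was also lowest in replicate 1, with 8.85, 9.61 and 9.83 against 9.14, 9.86 and 10.29. COL19A1 was lowest in replicate 2 in the pre-control group only.

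**Figure D4:**
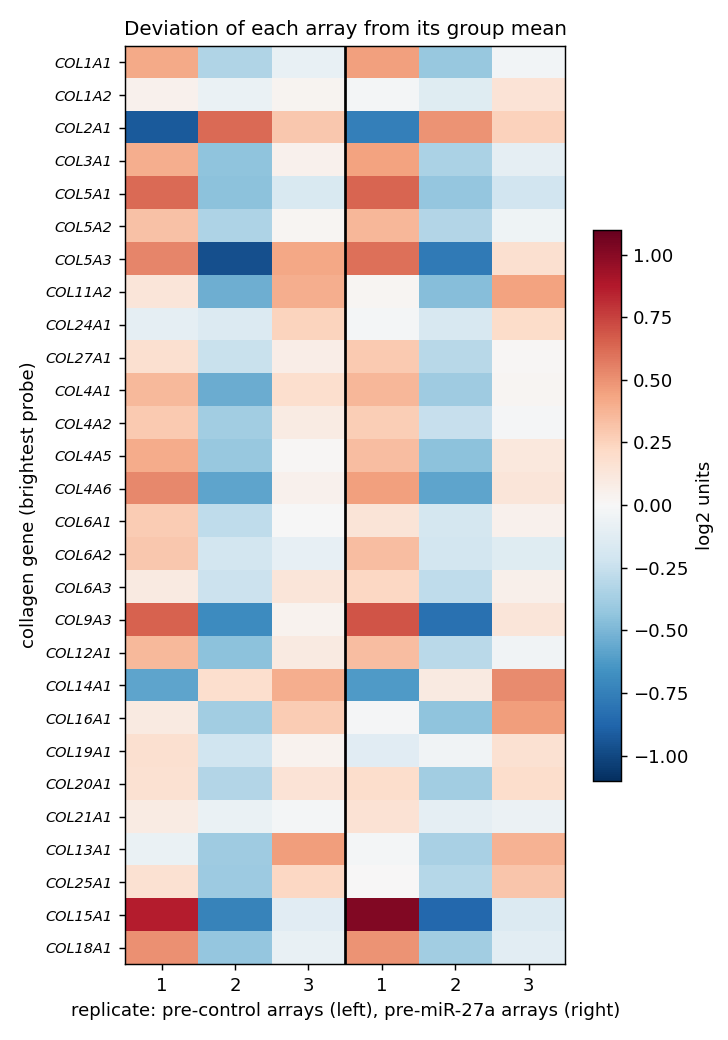
Deviation of each array from the mean of its group, in log2 units (colour), for 28 collagen genes (y axis) in the 3 pre-control arrays (left of the black line) and the 3 pre-miR-27a arrays (right). Replicate 2 is blue (low) in both groups for 25 genes, and COL2A1 and COL14A1 are low in replicate 1.

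Spots and detection gave further values beside this pattern. The 10 spots of 1 probe on 1 array had an SD of 0.03 to 0.08 log2 units for COL1A1, 0.06 to 0.16 for COL1A2 and 0.07 to 0.12 for COL13A1, which measures spotting only. The spreads between arrays were 0.75 and 0.87 for COL1A1, 0.13 and 0.28 for COL1A2 and 0.84 and 0.74 for COL13A1. Each array value is a mean over those 10 spots, so these spreads and the SD of single spots are unlike measures. The share of spots well above background was lowest on replicate 2 among pre-control arrays, as were most collagen genes, and highest on replicate 2 among pre-miR-27a arrays. Its part in the pattern was not tested. Among other gene lists, replicate 2 was lowest in both groups for 8 of 18 collagen folding and modifying enzymes, 6 of 12 procollagen processing and crosslinking genes, 4 of 7 collagen receptors, 6 of 10 fibril partners and 6 of 13 basement membrane partners. Among markers of other cell types detected on all arrays, it was lowest for 2 of 3 endothelial and 1 of 3 haematopoietic genes. The 3 endothelial genes had median spreads of 1.39 in pre-control and 1.20 in pre-miR-27a arrays, wider than those of collagen. TEK, an endothelial receptor, was at 7.76, 6.37 and 7.31 against 7.36, 5.44 and 7.22. VWF varied little, at 6.51, 6.60 and 6.55 against 6.49, 6.32 and 6.60, and replicate 2 was its highest pre-control array. PECAM1 was not above background on any array. Of 7 detected myogenic genes, replicate 2 was lowest in both groups for 2. These were MYF6, a muscle regulatory factor, with 9.57, 7.76 and 10.99 in pre-control and 9.47, 7.40 and 11.02 in pre-miR-27a arrays, and DES, which encodes desmin. The others did not share the collagen order. MYOG, MYOD1, CHRND and CHRNA1 were lowest in replicate 1 in both groups, and CDH15 was lowest in replicate 2 in the pre-miR-27a group only. The part of these genes in the pattern was not tested.

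The proteins that fold, trim, crosslink and bind collagen were described by the same rule, and their counts stand against the 7.4% of all gene names called without the block and the 14.1% called with it. Enzymes that hydroxylate and fold collagen chains in the endoplasmic reticulum gave 0 of 19 genes called, with a median difference of 0.02. With the block 2 of 19 passed, a share below that of all gene names and both of them higher, PPIB, a peptidyl-prolyl isomerase of the prolyl 3-hydroxylation complex (0.41, SE 0.13, adjusted p = 0.115, 0.0363 with the block), and LEPREL1, a prolyl 3-hydroxylase (0.34, SE 0.09, adjusted p = 0.0813, 0.0466 with the block). The chaperone SERPINH1 gave 0.02 (SE 0.13). Procollagen proteinases and lysyl oxidases gave 0 of 13 called with or without the block, and LOX itself was not above background on any array while LOXL1 to LOXL4 were on all.

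Collagen receptors gave 0 of 10 called. The receptor ITGA11, the integrin alpha chain for fibrillar collagen, gave −0.35 (SE 0.16, adjusted p = 0.241, 0.0431 with the block). Basement membrane partners gave 0 of 15 called, and with the block 1 of 15 was lower, also a share below that of all gene names, LAMC3, a laminin chain (−0.42, SE 0.17, adjusted p = 0.196, 0.0424 with the block).

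Of 12 tested fibril partners 1 was called, THBS2, which was lower, a share close to the 7.4% of all gene names. THBS2 encodes thrombospondin 2, a matricellular protein that affects fibril assembly. It gave 8.52, 8.41 and 8.26 in pre-control and 7.58, 7.35 and 7.26 in pre-miR-27a arrays, so the groups did not overlap. It fell by 1.0 on the log2 scale (SE 0.12, adjusted p = 0.019, 0.0334 with the block), and when 1 array was left out the call remained only without pre-control replicate 1, with adjusted p from 0.0456 to 0.0767 and a difference of −1.09 to −0.93 throughout. In 4 of those 6 settings limma called 0 probes of the whole array. Other matrix genes of this list, such as FN1 and SPARC, gave 0.16 (SE 0.36) and 0.07 (SE 0.14).

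**Figure D5:**
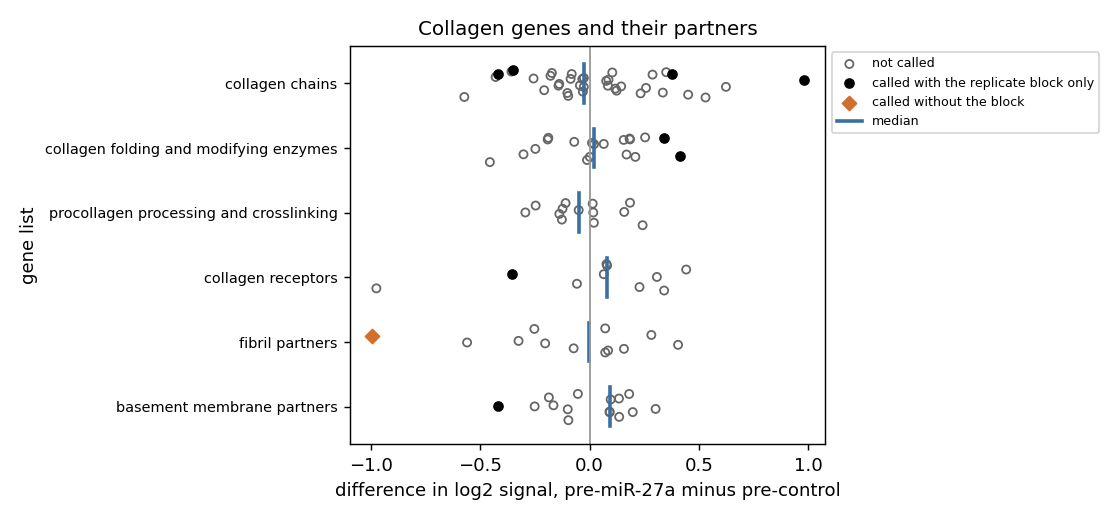
Log2 difference, pre-miR-27a minus pre-control (x axis), of collagen chain genes and of 5 lists of genes that act on or with collagen (y axis). Each point is a gene by its brightest probe, filled where it passed with the replicate block only and an orange diamond where it passed without it, and blue lines are medians. The medians lie between −0.05 and 0.09, and THBS2 at −1.0 is the 1 gene called without the block.

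Markers of cell type were set against the label of a muscle-like tumour line. Of 8 myogenic genes 7 were well above background on all 6 arrays, MYOD1 and MYOG among them, and MYF5 was on none. MYOG gave 9.72, 10.40 and 10.69 in pre-control and 8.87, 9.42 and 9.67 in pre-miR-27a arrays. Its difference was −0.95 (SE 0.32, adjusted p = 0.14 with limma, 0.0334 with the block). MYOD1 and CDH15 were also lower with the block only, which called 8.11% of all gene names lower. Their part in the collagen values was not tested. The epithelial markers CDH1 and TACSTD1, the endothelial marker PECAM1 and the haematopoietic markers PTPRC and CD33 were not well above background on any array. CLDN7, CLDN5, TEK, VWF, CD14, CD3E and ITGAM were well above it on all. CD14 and CD3E were called lower without the block, against 4.33% of all gene names, and no summed level of these lists was compared across probes.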

How the data were processed

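RNA from RH36 cells was measured on 6 one-colour arrays. The authors deposited processed spot intensities from Feature Extraction 10.5.1.1, with background subtracted within each array and no normalization between arrays, besides the quality flags and probe positions on hg18. The authors also deposited normalized log2 values in a table whose column medians were 9.13 to 9.22. Its 33169 probes, 54 of them collagen, differed from the values computed here by a median of 0.00398 and at most 1.16. No deposited column of per-sample values went unused (0 columns).

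Quantile normalization of log2 intensities, missing values for spots not found, a limit of 17% missing arrays and averaged replicate spots followed the paper's methods. SAM, which the paper names as two-class in its methods and as paired in its results, was replaced by limma 3.58.1 (R 4.3.3). Benjamini-Hochberg adjustment was over all 36469 probes, with a threshold of 0.05. On simulated data of that size, limma recovered 42 of 100 probes changed by 1 log2 unit and 76 of 100 changed by 2, with 2 false calls. The simulation changed far fewer probes than the 2856 called in the data. Collagen genes also had a larger median standard error than all probes (0.28 against 0.14). These recovery rates therefore do not carry over to the collagen genes. A gene was given by its brightest tested probe. The collagen genes and the gene lists were chosen with earlier results of these data known. Every collagen gene called was to be named, with COL1A1, COL1A2, COL3A1, COL5A1, COL5A2, COL4A1, COL4A2, COL6A1, COL6A2, COL6A3 and COL18A1, genes with disagreeing probes or groups that did not overlap, and up to 5 called genes per partner list and direction. COL24A1, COL5A3, COL15A1, COL9A3, COL2A1 and the uncalled partner genes were named after their values had been seen. For the basement membrane partners, 1 gene is not reported here and counts cover the other 15.

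The labels number the replicates. Over 31717 probes, deviations from the group means correlated by 0.40, 0.46 and 0.41 within numbers 1, 2 and 3. Between numbers they correlated by −0.27 to −0.12. Deviations cancel out within a group, so positive values within numbers make those between numbers negative on average. From the values within numbers, the numbers were taken as pairing the arrays. The comparison without the replicate block is the main one, so its standard errors include the variation shared by same-numbered arrays. At-least folds set the bright group's mean against, per dim array, the higher of the probe's own signal and the lowest signal well above background. Alternatives were scaling by the 75th percentile, normexp (offset 50), no filter, a filter on signals well above background, the block, the deposited values, a variance trend with robust estimation, the mean of a gene's probes and each array left out, without renormalizing. Taking any probe of a gene was added after seeing the data.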

Additional observations from a re-analysis of the deposited data

How the results depend on the processing

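Over all probes, 2856 were called, and 5421 with the replicate block. Normexp called 3527 of all probes, the filter on signals well above background 3870 and the deposited values 3343. Scaling by the 75th percentile called 3256, no filter 2994 and the variance trend 3378. With 1 array left out, 0 to 1276 were called (1276 without pre-control replicate 1, 81 without pre-control replicate 3 and 0 without any other). Collagen genes called higher numbered 2 with normexp (COL19A1 and COL25A1), 2 with the block, 1 with the filter on signals well above background and 1 with the deposited values (both COL25A1), and 4 when any probe counted with the block. Genes called lower numbered 1 under scaling by the 75th percentile (COL11A1, not well above background on any array, −1.28, adjusted p = 0.0272 with limma). They numbered 2 with the block, 2 when any probe counted and 5 when any probe counted with the block. Other alternatives and each array left out gave 0, and the block changed no other collagen call. The collagen median ran from −0.11 to 0.15 with 1 array left out.

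Of the 15 collagen genes followed through the alternatives, those whose direction reversed had brightest probes that were not called with or without the block. Averaging probes gave −0.040 for COL18A1 and 0.057 for COL4A1, and scaling by the 75th percentile gave −0.022 for COL4A2 and −0.090 for COL5A2. COL6A3 gave 0.36 on averaging although both of its tested probes were lower (−0.10 and −1.80). Its dim probe was missing on pre-miR-27a replicate 3. The average on that array was thus the bright probe alone, and the value of 0.36 shows no reversal. Leaving out 1 array without the block gave −0.36 to 0.11 for COL4A1, −0.066 to 0.27 for COL4A2 and −0.46 to 0.17 for COL5A1. It gave −0.11 to 0.24 for COL5A2, −0.24 to 0.041 for COL6A1 and −0.22 to 0.040 for COL6A3. An array left out leaves its same-numbered partner in that fit. In all 3 same-numbered pairs COL5A1 and COL6A1 were lower and COL4A2 and COL5A2 higher. The pairs of COL4A1 and of COL6A3 disagreed in direction. The block gave 1 basement membrane partner, 2 folding enzymes and 1 receptor, normexp 3 folding enzymes, and the variance trend 1. Fibril partners called numbered 2 under the 75th percentile, 2 without a filter and 0 to 1 with 1 array left out. Apart from that of COL6A3 on averaging, the cause of these changes was not tested. Signals not well above background limit COL4A3, COL4A4, COL8A1, COL8A2, COL11A1, COL17A1 and COL22A1.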
